A study of Homo sapiens with 16 samples.

Results

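RNA levels were followed for 40 genes of lysosomal nutrient sensing, lysosome biogenesis and autophagy, out of 26258 genes in the deposited table. They comprised the Rag GTPases RRAGC and RRAGD, the folliculin complex (FLCN, FNIP1 and FNIP2), the MiT/TFE transcription factors TFEB, TFE3 and MITF, and 32 genes that encode lysosomal proteins or act in autophagy. The genes were chosen by name with earlier results of the same libraries in view, in particular the higher RRAGD level in Sorafenib-resistant cells. The 4 comparisons of resistant with parental cells are therefore given as a description, without p-values. The comparisons of DMSO with parental cells, of IR with CR cells, of both parental lines and of the change between the lines were tested. For RRAGD all differences are given as values only, without p-values. The change between the lines is built from the same 4 resistant comparisons, so its p-values are not independent of the choice of genes. The other tested comparisons share resistant or parental libraries with those 4, so their p-values are not fully independent of it either. The lists of other pathway genes were written with those earlier results known as well.

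Huh7 and Hep3B are human hepatocellular carcinoma (HCC) cell lines, and Sorafenib is a multi-kinase inhibitor given in advanced HCC. For each line the groups were untreated parental cells, cells labelled DMSO (also labelled untreated), IR cells, made resistant in increasing Sorafenib concentrations, and CR cells, made resistant at a consistently high concentration. IR and CR cells were kept at 7 µM Sorafenib, so in comparisons with parental cells the drug and the resistance cannot be told apart, and whether a resistant line is 1 clone is not given in the sources used here. Each of the 8 groups held 2 libraries. The methods speak of biological triplicates, but nothing in the labels says that the 2 libraries came from separate cultures, so p-values measure only the spread between these libraries, which may be technical.

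The lysosome degrades macromolecules and is also a platform where nutrients are sensed. Heterodimers of RagA or RagB with RagC or RagD recruit mTORC1 to the lysosomal surface, and the folliculin complex acts on RagC and RagD as a GTPase-activating protein, which is needed for mTORC1 to phosphorylate TFEB and TFE3 and hold them in the cytoplasm. When this control is relieved, MiT/TFE factors enter the nucleus and bind E-box motifs in the promoters of lysosomal, autophagy and Rag GTPase genes, and their activity is thus regulated largely by localization, which RNA levels do not show.

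The sequence that MiT/TFE factors are known to recognise was looked up in the RefSeq promoters of the members, from 250 bases before to 50 bases after the start of the gene (build GRCh38.p14, both strands). The table held 29 of the 40 members. RRAGD, LAMP2, CTSB, CTSS, HEXA, SGSH, ASAH1, PSAP, ATP6V1A, ATP6V1H and UVRAG were not in it. The E-box CACGTG was present in 9 of the 29 promoters (31.0%), in 7.43% of all 27305 promoters and in 9.96% of the 11742 promoters of genes tested. The longer TCACGTGA, which contains the E-box, was found in 5 of the 29 (17.2%), compared with 1.04% of all promoters and 1.83% of those of genes tested. The members with CACGTG were RRAGC, FNIP1, LAMP1, MCOLN1, CTSA, CTSD, GAA, NEU1 and ATP6V0D1. LAMP1 held 6 copies, FNIP1, MCOLN1, CTSA and GAA held 2 each, and the others held 1. The related TCATGTG was found in GPNMB, TPP1 and CTSA, which is 3 of 29 members compared with 2.99% of all promoters. A match of letters is a description and not a binding site. The members were named as lysosome, autophagy and MiT/TFE genes, so these shares depend on that choice and nothing is read from them.

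The 250 bases before the start are printed for 6 members whose RNA levels are described below, because they carry the motif in different numbers and forms. They lie at chr1:38859773-38860022 (minus strand) for RRAGC, chr13:113296989-113297238 (plus) for LAMP1, chr20:45891085-45891334 (plus) for CTSA, chr11:1763928-1764177 (minus) for CTSD, chr17:80101331-80101580 (plus) for GAA and chr7:23246525-23246774 (plus) for GPNMB, each read 5′ to 3′ along the gene. Capitals mark CACGTG, and in GPNMB and CTSA also CACATGA, which is TCATGTG on the other strand. The last capital of LAMP1 begins a match that runs past the start.
RRAGC: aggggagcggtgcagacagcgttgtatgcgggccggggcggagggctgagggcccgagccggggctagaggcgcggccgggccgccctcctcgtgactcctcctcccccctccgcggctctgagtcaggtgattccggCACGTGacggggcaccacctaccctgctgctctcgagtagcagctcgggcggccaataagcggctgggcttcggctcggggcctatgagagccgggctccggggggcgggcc
LAMP1: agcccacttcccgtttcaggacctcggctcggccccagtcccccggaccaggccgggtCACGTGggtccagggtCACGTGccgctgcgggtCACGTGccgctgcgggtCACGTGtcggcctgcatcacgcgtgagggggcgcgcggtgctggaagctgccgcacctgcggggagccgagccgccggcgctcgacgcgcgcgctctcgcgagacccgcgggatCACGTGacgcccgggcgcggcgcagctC
CTSA: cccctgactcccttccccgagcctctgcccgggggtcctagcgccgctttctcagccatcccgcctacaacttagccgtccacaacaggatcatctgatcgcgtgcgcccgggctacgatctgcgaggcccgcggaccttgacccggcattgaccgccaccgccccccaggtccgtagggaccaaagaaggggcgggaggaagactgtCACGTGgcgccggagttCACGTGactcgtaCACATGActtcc
CTSD: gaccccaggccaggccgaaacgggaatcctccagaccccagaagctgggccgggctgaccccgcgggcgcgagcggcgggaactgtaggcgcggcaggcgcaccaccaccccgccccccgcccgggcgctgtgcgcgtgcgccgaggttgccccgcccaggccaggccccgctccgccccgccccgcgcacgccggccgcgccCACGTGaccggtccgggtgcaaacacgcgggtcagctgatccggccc
GAA: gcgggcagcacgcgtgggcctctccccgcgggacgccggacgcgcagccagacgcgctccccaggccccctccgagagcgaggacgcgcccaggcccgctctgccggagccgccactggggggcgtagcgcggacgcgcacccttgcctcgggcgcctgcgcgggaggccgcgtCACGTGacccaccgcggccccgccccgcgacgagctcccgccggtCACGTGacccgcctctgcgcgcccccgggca
GPNMB: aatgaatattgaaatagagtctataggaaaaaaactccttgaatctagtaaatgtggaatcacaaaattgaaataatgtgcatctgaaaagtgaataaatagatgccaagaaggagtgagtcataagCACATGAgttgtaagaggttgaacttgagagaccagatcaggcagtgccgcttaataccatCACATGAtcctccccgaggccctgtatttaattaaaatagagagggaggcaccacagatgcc

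The table holds CPM, the reads of a gene scaled to the total of its library, and scaling back gave whole reads, with 46613302 to 76860251 reads in a library. Hepatocyte markers were present in all groups, with a summed level of 7209 CPM and 10068 CPM in Huh7 parental libraries and 17515 CPM to 22202 CPM in those of Hep3B. They were lower in resistant cells, at 112 CPM to 470.2 CPM in Huh7-IR, 1365 CPM to 2784 CPM in Huh7-CR, 3600 CPM to 10424 CPM in Hep3B-IR and 1328 CPM to 2250 CPM in Hep3B-CR cells. Of the 10 hepatocyte markers tested, 9, 8, 4 and 7 were called lower in the same order, and 1 was called higher in Hep3B-IR cells. In the DMSO libraries these markers summed to 17343.5 CPM and 20783 CPM in Huh7 and to 31850 CPM and 38102 CPM in Hep3B. The DMSO sums thus lay above the parental ones, although 0 of the 10 were called in either DMSO comparison. Macrophage markers summed to at most 8.18 CPM, melanocyte markers to at most 3.13 CPM and endothelial markers to at most 6.42 CPM in any library. Fibroblast and stellate markers summed to 27.0 CPM to 822.2 CPM, and of 7 tested 6 were called higher and 1 lower in both resistant Huh7 lines. In RNA of a whole culture, fewer cells of a type and less RNA per cell cannot be told apart, and the part of these shifts in the results was not tested. The Huh7-IR libraries stood apart from each other, with an SD of the replicate difference of 0.57 (log2, over 14597 genes), against 0.29 in Huh7 parental cells. The value was also 0.57 for Huh7 DMSO cells, where the summed level of 12 hypoxia-induced genes was 258.3 CPM in replicate 1 and 957.4 CPM in replicate 2, compared with 218.9 CPM to 275.0 CPM in Huh7 parental cells. The Hep3B DMSO libraries had 189.2 CPM and 436 CPM.

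RRAGD, the RagD subunit, was barely expressed in Huh7 parental cells and was far higher in every resistant Huh7 library. It is encoded at chr6:90074335-90121992 (minus strand, GRCh37). Its level was 1.08 CPM and 1.89 CPM in Huh7 parental cells, 204 CPM and 28.1 CPM in Huh7-IR cells, and 34.1 CPM and 29.0 CPM in Huh7-CR cells. Replicate 1 of Huh7-IR thus stood far above the other 3 resistant libraries, which lay close together. In Huh7 cells labelled DMSO it was 1.20 CPM and 5.99 CPM, and the second of these is the library with the high hypoxia-gene sum. The log2 fold changes against parental cells, on the log2(CPM + 1) scale, were 4.98 ± 0.69 (SE, n = 2 against 2) for Huh7-IR and 3.73 ± 0.69 for Huh7-CR cells. Without Huh7-IR replicate 1 the former was 3.57, and without replicate 2 it was 6.39.

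In Hep3B cells RRAGD started from a higher level and changed less. It was 14.5 CPM and 10.8 CPM in parental, 45.5 CPM and 50.5 CPM in IR, and 38.0 CPM and 39.4 CPM in CR cells, without overlap between resistant and parental libraries. The Hep3B DMSO libraries lay in between, at 31.1 CPM and 24.9 CPM. Against parental cells the log2 fold change was 1.86 for Hep3B-IR, and for Hep3B-CR it was 1.55 (SE 0.69), while against DMSO cells the values were 0.77 and 0.46. None of these Hep3B changes was called by the thresholds given below. The DMSO libraries themselves were 1.09 above parental cells in Hep3B and 0.68 in Huh7, and neither difference was called. The mean change of the resistant cells was 4.35 in Huh7 and 1.70 in Hep3B cells.

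RRAGC, the RagC subunit that can take the place of RagD in the heterodimer, was higher in resistant cells of both lines but over a narrower range. It was 28.0 CPM and 37.7 CPM in Huh7 parental, 169.6 CPM and 94.3 CPM in Huh7-IR, and 93.5 CPM and 70.6 CPM in Huh7-CR cells. In Hep3B cells its level was 29.2 CPM and 27.0 CPM in parental, 44.7 CPM and 39.9 CPM in IR, and 61.3 CPM and 70.0 CPM in CR cells. All resistant libraries lay above the parental ones of their line, by log2 fold changes of 1.93, 1.30, 0.57 and 1.19 (SE 0.25) for IR and then CR cells, first of Huh7 and then of Hep3B. The DMSO libraries were at 25.4 CPM and 31.9 CPM in Huh7 and at 32.0 CPM and 31.8 CPM in Hep3B cells. Levels of different genes were compared per kilobase of transcript. RRAGC was at 12.3 CPM per kb and RRAGD at 0.30 CPM per kb in Huh7 parental cells, and they were at 49.2 and 23.6 CPM per kb in Huh7-IR cells (means of 2). In Huh7-CR cells the respective levels were 30.6 and 6.41 CPM per kb, and in Hep3B parental cells 10.5 and 2.57 CPM per kb. RRAGC was the more abundant of both in every library.

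**Figure D1:**
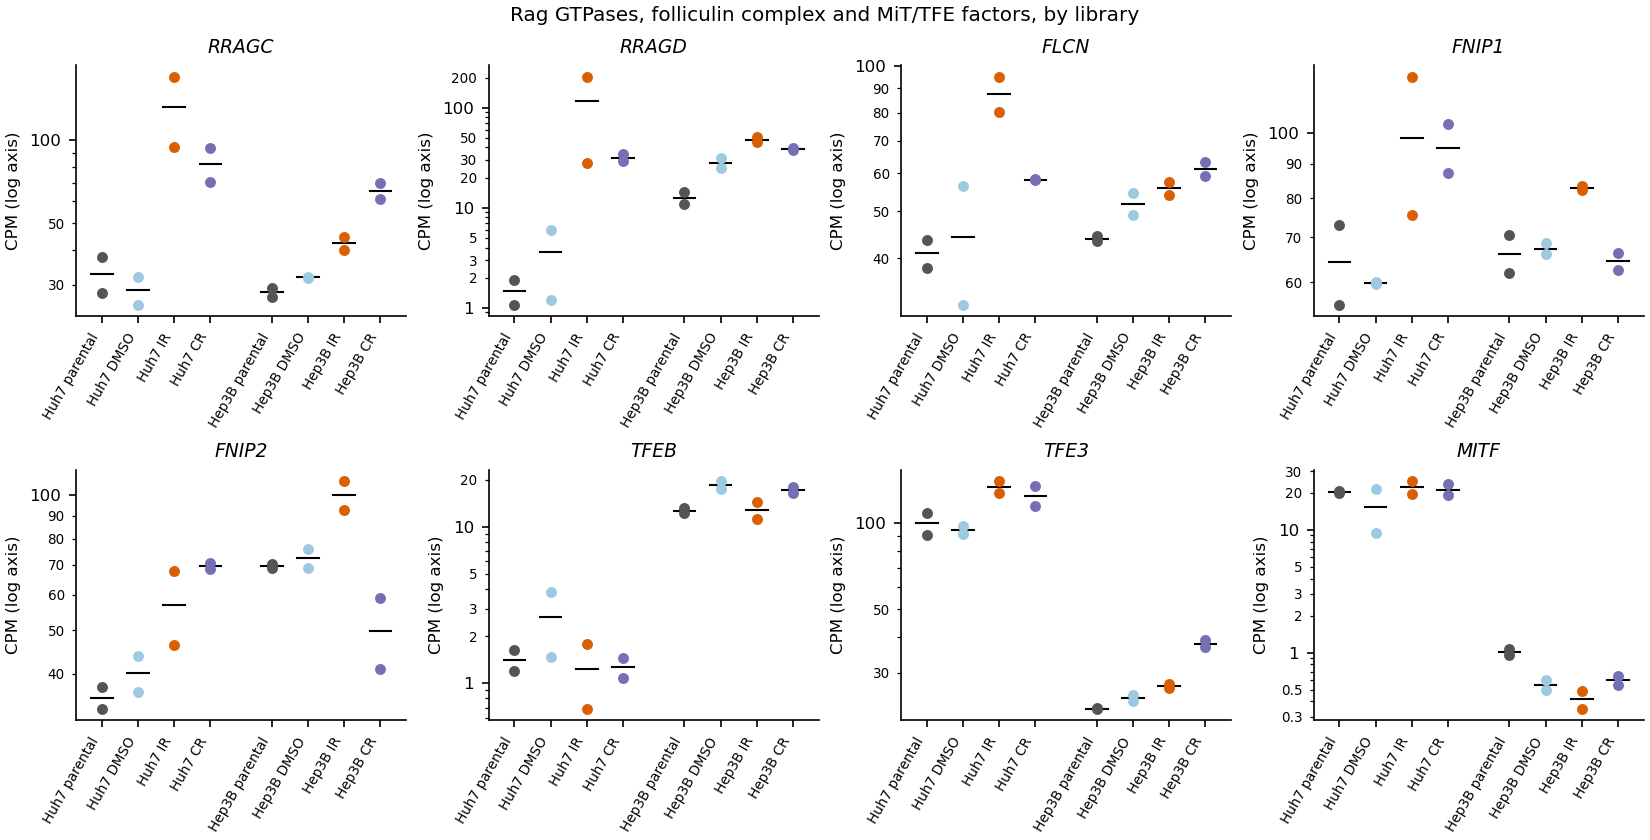
CPM (log axis) of the Rag GTPases, the folliculin complex and the MiT/TFE factors in the 16 libraries; each point is 1 library and each bar the mean of 2. RRAGD rises from 1.08 CPM and 1.89 CPM in Huh7 parental cells to between 28.1 CPM and 204 CPM in resistant Huh7 cells, while TFEB and MITF differ mainly between the lines.

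The folliculin complex was higher in Huh7-IR cells for each subunit. FLCN, the folliculin subunit, was 38.2 CPM and 43.6 CPM in Huh7 parental, 95.2 CPM and 80.4 CPM in Huh7-IR, and 57.9 CPM and 58.3 CPM in Huh7-CR cells. In Hep3B it was 44.3 CPM and 43.3 CPM in parental, 54.0 CPM and 57.6 CPM in IR, and 59.2 CPM and 63.2 CPM in CR cells. The resistant libraries lay above parental ones in both lines, and the DMSO libraries at 32.0 CPM and 56.5 CPM in Huh7 overlapped the parental level. In Hep3B the DMSO libraries, at 49.1 CPM and 54.5 CPM, lay above the parental ones and overlapped those of IR cells. FNIP1 and FNIP2 are the folliculin-interacting proteins. FNIP1 was 55.5 CPM and 72.8 CPM in Huh7 parental, 121.3 CPM and 75.5 CPM in Huh7-IR, 103 CPM and 87.3 CPM in Huh7-CR, 70.4 CPM and 61.8 CPM in Hep3B parental, 83.4 CPM and 82.2 CPM in Hep3B-IR, and 66.3 CPM and 62.6 CPM in Hep3B-CR cells. Its Huh7-IR value of 0.58 on the log2 scale lay at the threshold and was 0.24 without replicate 1. FNIP2 was 33.4 CPM and 37.3 CPM in Huh7 parental, 67.7 CPM and 46.4 CPM in Huh7-IR, 70.8 CPM and 68.5 CPM in Huh7-CR, 70.2 CPM and 68.9 CPM in Hep3B parental, 92.7 CPM and 107.7 CPM in Hep3B-IR, and 40.9 CPM and 58.9 CPM in Hep3B-CR cells. FNIP2 thus lay above its parental level in 3 of the resistant lines and below it in Hep3B-CR cells.

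The MiT/TFE factors differed far more between the lines than with resistance. TFE3 was 109 CPM and 90.9 CPM in Huh7 parental and 22.4 CPM and 22.5 CPM in Hep3B parental cells (log2 difference 2.10 ± 0.13, limma adjusted p = 7.3e-08). MITF, the melanocyte factor of the family, was 20.7 CPM and 20.0 CPM in Huh7 parental and 0.96 CPM and 1.07 CPM in Hep3B parental cells (3.41 ± 0.28, adjusted p = 9.89e-07). TFEB showed the opposite order, with 1.63 CPM and 1.21 CPM in Huh7 parental and 12.2 CPM and 13.1 CPM in Hep3B parental cells (-2.50 ± 0.30, adjusted p = 2.61e-05). Per kilobase of transcript, TFE3 was the most abundant factor in Huh7 parental cells at 30.4 CPM per kb, followed by MITF at 4.24 and TFEB at 0.61. In Hep3B parental cells TFE3 was at 6.83 and TFEB at 5.42 CPM per kb, and MITF at 0.21.

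In resistant cells TFE3 was 140.9 CPM and 128.2 CPM (Huh7-IR), 135 CPM and 114.6 CPM (Huh7-CR), 27.5 CPM and 26.6 CPM (Hep3B-IR), and 36.9 CPM and 39.0 CPM (Hep3B-CR). All of these lay above the parental libraries of their line, by log2 fold changes of 0.43, 0.32, 0.26 and 0.73 (SE 0.13), and the Hep3B-CR value was the only one past the threshold, which it missed after GC correction. TFEB was 1.77 CPM and 0.69 CPM in Huh7-IR, 1.08 CPM and 1.45 CPM in Huh7-CR, 14.4 CPM and 11.2 CPM in Hep3B-IR, and 18 CPM and 16.5 CPM in Hep3B-CR cells. MITF was 19.5 CPM and 24.9 CPM in Huh7-IR, 19.1 CPM and 23.3 CPM in Huh7-CR, 0.35 CPM and 0.48 CPM in Hep3B-IR, and 0.54 CPM and 0.65 CPM in Hep3B-CR cells. For TFEB and MITF the log2 fold changes lay between -0.51 and 0.42 (SE 0.30 and 0.28), and resistant and parental libraries overlapped in Huh7 cells. Melanocyte markers were near 0 in both lines, as given above.

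Of the 40 members, 23 were called higher and 3 lower in Huh7-IR cells (adjusted p under 0.05 over all genes, and at least 0.58 in either direction on the log2 scale), where 31.1% and 17.8% of the 15019 genes tested were called higher and lower. The counts were 16 and 3 in Huh7-CR (20.9% and 13.6% of all genes), 4 and 2 in Hep3B-IR (15.7% and 11.4%), and 10 and 2 in Hep3B-CR cells (20% and 12.3%). Since the genes were chosen with these comparisons known, nothing is read from the counts. The median log2 fold change of the members was 0.75, 0.44, 0.08 and 0.40 in the same order, beside 0.19, 0.07, 0.06 and 0.11 for all genes. With TMM factors the Huh7-IR median over all genes was 0.04 in place of 0.19, and 20 members were higher and 3 lower. MAP1LC3B was the only member called higher in all 4 comparisons and none was called lower in all 4. RRAGC, WIPI1, PSAP, ASAH1, SQSTM1 and CTSB were called higher in 3, and ATP6V1A lower in 3. With DMSO cells as the reference, MAP1LC3B, RRAGC, ASAH1 and ATP6V1A kept these calls. CTSB was then called in none (0.46, 0.50, 0.01 and 0.47 in the same order). WIPI1 (0.95) and PSAP (0.33) were not called in Huh7-CR cells, nor SQSTM1 (0.35) in Hep3B-CR cells. Against the DMSO cells of the same line, 13 members were called in Hep3B-IR cells, 5 higher (GPNMB, MAP1LC3B, GABARAPL1, LAMP2 and UVRAG) and 8 lower (CTSS, TPP1, CTSD, GAA, CTSL, CTSA, NEU1 and SQSTM1), where 17.3% of all genes were called higher and 14.8% lower. Against parental cells, CTSS and TPP1 were called in opposite directions in the lines, and 8 members (TFEB, MITF, NPC2, CTSL, CTSZ, ATP6V0A1, ATP6V1H and ATP6AP1) were called in none.

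**Figure D2:**
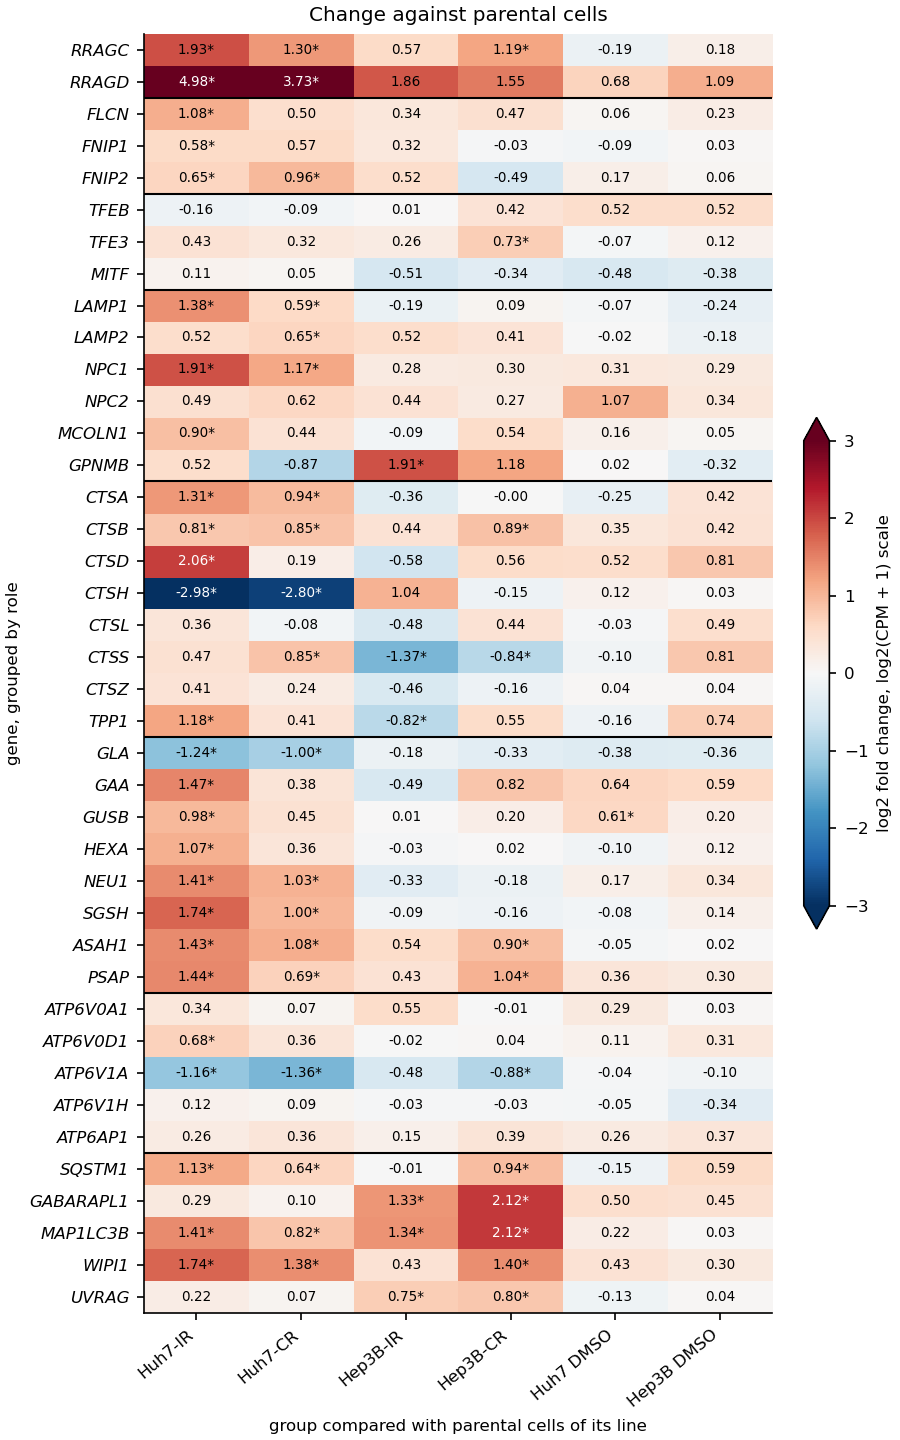
Log2 fold change (colour and number, log2(CPM + 1) scale) of the 40 genes in each resistant or DMSO group against the parental cells of its line, in rows by role; a star marks an adjusted p under 0.05 with a change of 0.58 or more in size. Huh7-IR cells hold 23 higher and 3 lower genes, Hep3B-IR cells 4 and 2, and the DMSO columns 1 star, for GUSB.

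Among lysosomal membrane and sterol transport proteins, the log2 fold changes in Huh7-IR cells were above 0 for all 6, with 3 called higher (31.1% of all genes). NPC1, which exports cholesterol from the lysosome together with NPC2, was 57.4 CPM and 58.4 CPM in Huh7 parental, 301.1 CPM and 160.1 CPM in Huh7-IR, and 139.8 CPM and 123.2 CPM in Huh7-CR cells. In Hep3B it was 55.1 CPM and 54.6 CPM in parental cells and 63.1 CPM to 70.4 CPM in the 4 resistant libraries. All resistant libraries exceeded the parental ones, by 1.91 and 1.17 on the log2 scale in Huh7 and by 0.28 and 0.30 in Hep3B cells. The Hep3B DMSO libraries, at 66.3 CPM and 68.7 CPM, lay at the resistant level. Against them the changes of IR and CR cells were -0.02 and 0.01. LAMP1 and LAMP2 are the abundant glycoproteins of the lysosomal membrane, and MCOLN1 is its calcium channel. LAMP1 had log2 fold changes of 1.38 and 0.59 in Huh7 and of -0.19 and 0.09 in Hep3B cells (SE 0.14), while LAMP2 lay between 0.41 and 0.65 in all 4 comparisons. MCOLN1 ranged from -0.09 to 0.90 and NPC2 from 0.27 to 0.62.

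GPNMB, a transmembrane glycoprotein known as a MiT/TFE target in pigment cells and macrophages, went different ways in the replicates. It was 3.96 CPM and 4.67 CPM in Huh7 parental, 20.5 CPM and 1.67 CPM in Huh7-IR, and 1.76 CPM and 2.04 CPM in Huh7-CR cells. Replicate 1 of Huh7-IR was therefore the only resistant Huh7 library above the parental level, and the fold change of 0.52 ± 0.66 turned to -0.99 without it. In Hep3B cells GPNMB was 1.31 CPM and 1.28 CPM in parental, 9.46 CPM and 6.07 CPM in IR, and 5.38 CPM and 3.26 CPM in CR cells, with log2 fold changes of 1.91 and 1.18 (SE 0.66), and the call of the former was lost under 15 of 29 alternatives. All resistant Hep3B libraries lay above the parental ones. Macrophage markers summed to at most 3.91 CPM in those resistant Hep3B libraries and to 0.72 CPM and 1.08 CPM in the parental ones, and of 4 tested 0 were called in Hep3B-IR and 1 higher in Hep3B-CR cells. Melanocyte markers summed to 1.54 CPM to 2.23 CPM there and to 0.55 CPM and 0.68 CPM in parental cells, and the 1 gene tested was higher in both. The part of these markers in the result was not tested.

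The lysosomal peptidases showed the widest spread of any role. CTSH, an aminopeptidase of the cathepsin family, was 55.8 CPM and 36.8 CPM in Huh7 parental, 8.44 CPM and 2.64 CPM in Huh7-IR, and 5.43 CPM and 5.85 CPM in Huh7-CR cells. In Hep3B it was 30.9 CPM and 22.6 CPM in parental, 51.4 CPM and 59.5 CPM in IR, and 29.2 CPM and 19.3 CPM in CR cells. It was lower in every resistant Huh7 library, by -2.98 and -2.80 on the log2 scale (SE 0.39), and in Hep3B the values were 1.04 and -0.15. The carboxypeptidase CTSA was higher in Huh7-IR and Huh7-CR cells (1.31 and 0.94), as was CTSB, the cathepsin B cysteine protease (0.81 and 0.85). CTSD, the main aspartic protease of lysosomes, and TPP1, a tripeptidyl peptidase, exceeded the threshold in Huh7-IR cells (2.06 and 1.18) and had 0.19 and 0.41 in Huh7-CR cells. CTSS, a cysteine protease typical of antigen-presenting cells, was at most 6.98 CPM in any library. CTSL and CTSZ, 2 further cathepsins, stayed between -0.48 and 0.44 in all 4 comparisons.

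Of the 8 hydrolases and activators of glycan and lipid degradation, 7 were called higher and 1 lower in IR cells of Huh7, while none was called in those of Hep3B. Among all genes tested, 31.1% were called higher and 17.8% lower in the former, and 15.7% and 11.4% in the latter. PSAP, the precursor of the saposins, was 818.8 CPM and 714.8 CPM in Huh7 parental, 1959 CPM and 2188 CPM in Huh7-IR, and 1198 CPM and 1269 CPM in Huh7-CR cells. In Hep3B it was 536.5 CPM and 650.4 CPM in parental, 754.2 CPM and 834.7 CPM in IR, and 1027 CPM and 1430.1 CPM in CR cells. Each resistant library was above the parental ones. The Hep3B DMSO libraries, at 685.7 CPM and 775.0 CPM, overlapped those of Hep3B-IR cells. ASAH1, the acid ceramidase, was 178.3 CPM and 199.2 CPM in Huh7 parental, 749.9 CPM and 345.7 CPM in Huh7-IR, and 391.8 CPM and 406.4 CPM in Huh7-CR cells. It was 119.5 CPM and 98.1 CPM in Hep3B parental, 151.9 CPM and 164.6 CPM in Hep3B-IR, and 183.5 CPM and 223.6 CPM in Hep3B-CR cells. Like PSAP it was higher in every resistant library of both lines.

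Sialidase and sulfatase genes changed in Huh7 cells. NEU1, the lysosomal sialidase, was 71.9 CPM and 86.0 CPM in Huh7 parental, 265.4 CPM and 166.3 CPM in Huh7-IR, and 149.6 CPM and 174.8 CPM in Huh7-CR cells, against 201.6 CPM to 268.9 CPM over the parental and resistant Hep3B libraries. SGSH, a heparan sulfate sulfamidase, was 6.81 CPM and 4.30 CPM in Huh7 parental, 13.4 CPM and 31.2 CPM in Huh7-IR, 10.7 CPM and 13.2 CPM in Huh7-CR, and 7.56 CPM to 10.4 CPM in the parental and resistant Hep3B libraries. GLA, the alpha-galactosidase, was lower, with 81.1 CPM and 78.4 CPM in Huh7 parental, 37.6 CPM and 29.4 CPM in Huh7-IR, and 34.3 CPM and 44.9 CPM in Huh7-CR cells. The log2 fold changes of GLA were -1.24 and -1.0 (SE 0.18), and in Hep3B cells, where it was 31.4 CPM in both parental libraries and 24.5 CPM to 27.6 CPM in the resistant ones, they were -0.18 and -0.33. GAA, GUSB and HEXA, which degrade glycogen, glucuronides and gangliosides, had log2 fold changes of 1.47, 0.98 and 1.07 in Huh7-IR cells and between -0.49 and 0.82 elsewhere.

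Of 5 members of the V-ATPase, the proton pump that acidifies the lysosome, 1 was called higher and 1 lower in Huh7-IR cells. Among all genes tested, 31.1% were called higher and 17.8% lower there, and nothing is read from this count. ATP6V1A, its catalytic subunit, was 332.8 CPM and 374.7 CPM in Huh7 parental, 179.2 CPM and 138.7 CPM in Huh7-IR, and 124.2 CPM and 150.5 CPM in Huh7-CR cells. In Hep3B it was 243.2 CPM and 236.8 CPM in parental, 167.4 CPM and 177.3 CPM in IR, and 125.6 CPM and 134 CPM in CR cells. Every resistant library lay below the parental ones, by -1.16, -1.36, -0.48 and -0.88 on the log2 scale (SE 0.17). The other members of the pump, ATP6V0A1, ATP6V0D1, ATP6V1H and the accessory protein ATP6AP1, lay between -0.03 and 0.68, and ATP6V0D1 in Huh7-IR cells was the only value of these past the threshold.

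Of the 5 autophagy genes, 3 were called higher in each of Huh7-IR, Huh7-CR and Hep3B-IR cells, all 5 in Hep3B-CR cells, and 0 lower. Among all genes tested, the shares called higher were 31.1%, 20.9%, 15.7% and 20% in this order, and nothing is read from these counts. MAP1LC3B, the ubiquitin-like protein LC3B of the autophagosome membrane, was 102.2 CPM and 106.8 CPM in Huh7 parental, 333.6 CPM and 233 CPM in Huh7-IR, and 219.1 CPM and 157.4 CPM in Huh7-CR cells. In Hep3B cells its level was 61.0 CPM and 64.5 CPM in parental, 146.5 CPM and 176.4 CPM in IR, and 273 CPM and 277.8 CPM in CR cells. The log2 fold changes were 1.41, 0.82, 1.34 and 2.12 (SE 0.20), and no resistant library overlapped the parental ones. WIPI1, a phosphoinositide-binding protein of early autophagosomes, was 39.4 CPM and 45.4 CPM in Huh7 parental, 208.3 CPM and 99.1 CPM in Huh7-IR, and 128 CPM and 98.0 CPM in Huh7-CR cells. It was 23.9 CPM and 25.2 CPM in Hep3B parental, 36.7 CPM and 30.3 CPM in Hep3B-IR, and 83.8 CPM and 52.4 CPM in Hep3B-CR cells. Huh7 DMSO replicate 2, with the high hypoxia-gene sum, had 84.9 CPM against 38.6 CPM in replicate 1.

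GABARAPL1, an LC3 relative, moved in Hep3B cells. It was 9.50 CPM and 8.81 CPM in Hep3B parental, 13.2 CPM and 12.4 CPM in DMSO, 26.6 CPM and 22.7 CPM in IR, and 45.6 CPM and 40.6 CPM in CR cells. In Huh7 it was already at 82.7 CPM and 83.0 CPM in parental cells, and it was 138.3 CPM and 74.5 CPM in IR and 80.4 CPM and 97.8 CPM in CR cells, which overlap the parental values in both cases. Only uniquely mapped reads were counted, so the levels of GABARAPL1 and MAP1LC3B, which have close relatives in the genome, are less certain than those of other members. SQSTM1, the autophagy receptor p62, had log2 fold changes of 1.13, 0.64, -0.01 and 0.94 (SE 0.14), and UVRAG, a subunit of a Beclin 1 complex, of 0.22, 0.07, 0.75 and 0.80 (SE 0.19).

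The members with and without an E-box in the promoter window can be set side by side. The genes were chosen with the resistant comparisons known, so nothing is read from these counts. All 9 members with CACGTG were called higher in Huh7-IR cells, and 8 of the 20 without it were higher and 2 lower. The calls of ATP6V0D1, FNIP1 and GAA among the 9 were lost under 9, 8 and 3 of 29 alternatives. Over all genes tested, 31.9% of those with and 31.2% of those without the motif were called higher there. In Huh7-CR cells 4 of 9 and 5 of 20 members were higher, in Hep3B-IR cells 0 of 9 and 3 of 20, and in Hep3B-CR cells 1 of 9 and 5 of 20. The shares of all genes with and without the motif were 19.2% and 21.4%, 13.7% and 15.9%, and 18.2% and 20.2% in these 3 comparisons. The median log2 fold change of the 9 was 1.38 in Huh7-IR and -0.19 in Hep3B-IR cells. The 6 copies of LAMP1, the 2 of GAA and the 1 of CTSD stood in genes that were all higher in Huh7-IR and lay below the parental level in Hep3B-IR cells.

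Other genes of the same pathways, listed by role with earlier results of these libraries known, were counted alongside. The shares of all genes called higher and lower are those given above for the 4 comparisons (31.1% and 17.8% for Huh7-IR), and nothing is read from these counts. The 2 genes named for each list had its largest mean change in size, in either direction. Of 25 other autophagy genes, 12 were called higher and 0 lower in IR cells of Huh7, and 6 and 1 in CR cells of that line. The Hep3B counts were 3 and 1 for IR and 7 and 0 for CR cells. Their leading genes by mean change were OPTN, an autophagy receptor (2.71, 2.35, 1.26 and 1.68), and ULK1, the kinase that starts autophagy (2.35, 1.45, 1.09 and 1.36, of which the third was not called). Of 26 other hydrolases, 8 were higher and 5 lower, 6 and 3, 2 and 4, and 6 and 3 in the same order. IDS, the iduronate sulfatase (1.33, 1.70, 1.90 and 2.65), and LIPA, the acid lipase (1.80, 1.95, 1.61 and 1.77), were higher in all 4 comparisons. Of 15 other lysosomal membrane proteins, 7 were higher and 1 lower, 6 and 1, 2 and 0, and 4 and 0. SIDT2 had 1.51, 1.08, 0.73 and 0.99 and ABCA2 2.38, 0.90, -0.05 and 0.59, each with an SE of 0.33 and 0.54. Of 12 other V-ATPase subunits, 3 and 0, 3 and 1, 0 and 0, and 1 and 0 were called, with ATP6V0D2, an isoform of the membrane sector, highest (2.20, 2.23, 0.77 and 3.45) and ATP6V1B2 between -0.47 and -0.35. Of 17 genes of the Ragulator, the other Rag GTPases, GATOR1 and mTORC1, 5 were higher and 2 lower, 2 and 0, 0 and 1, and 1 and 0 in the same order. RRAGB, the RagB partner of RagC and RagD, had 1.79, 1.01, 0.62 and 0.44 (SE 0.25), and TSC2, an mTORC1 inhibitor, 1.31, 0.45, 0.47 and 1.06 (SE 0.27).

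The DMSO cells served to ask whether members moved without the drug. In Huh7 cells 1 member was called higher and none lower (3.46% and 1.37% of all genes). This was GUSB, the beta-glucuronidase, at 24.2 CPM and 24.4 CPM in parental and 32.8 CPM and 43.1 CPM in DMSO cells (log2 fold change 0.61 ± 0.15, limma adjusted p = 0.035), and it was not called with TMM factors. In Hep3B cells limma called 0 members in either direction, where 1.07% of all genes were called higher and 0.513% lower. In that comparison edgeR and DESeq2 on the recovered reads also called 0. At an unadjusted limma p under 0.05, 8 members lay above Hep3B parental cells and 0 below. The share of all genes at that threshold was not determined, so nothing is read from this count. Among the 12 hypoxia-induced genes no gene was called in either DMSO comparison, although their median log2 fold change was 1.04 in Huh7 and 0.41 in Hep3B cells.

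IR and CR cells of the same line were compared. Their libraries are part of the resistant comparisons known when the genes were chosen, so the p-values are not fully independent of that choice. The sources used here describe no repeated selection by the same regimen within a line. The way of selection therefore cannot be told apart from other differences between the derived resistant lines. Huh7-IR cells had higher levels of 4 members than Huh7-CR cells and lower levels of none (8.23% and 5.43% of all genes). CTSD was 375.3 CPM and 502.9 CPM in Huh7-IR and 99.7 CPM and 140 CPM in Huh7-CR cells (log2 difference 1.87 ± 0.28, limma adjusted p = 0.0017). LAMP1 was 301.5 CPM and 327.1 CPM against 166 CPM and 198.1 CPM (0.79 ± 0.14, adjusted p = 0.0046). Both were higher in each IR library than in each CR library. PSAP (0.75) and HEXA (0.71) were the others. None of the 4 was called when only Huh7 libraries were fitted. RRAGC had a difference of 0.63 ± 0.25 (adjusted p = 0.096). For RRAGD the difference was 1.25 ± 0.69, given as a value only, and neither gene was called.

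In Hep3B cells the levels of 8 members were lower and of 1 higher in Hep3B-IR than in Hep3B-CR cells (6.41% and 5.33% of all genes), and with TMM factors the counts were 7 and 3. TPP1 was 67.6 CPM and 58.6 CPM in Hep3B-IR and 123.3 CPM and 219.7 CPM in Hep3B-CR cells (-1.37 ± 0.25, limma adjusted p = 0.0037). GAA, the acid alpha-glucosidase, was 18.8 CPM and 13.2 CPM against 35.2 CPM and 46.9 CPM (-1.31 ± 0.38, adjusted p = 0.041), and this call was lost under 12 of 28 alternatives. Both genes were lower in each IR library. CTSD (-1.14), SQSTM1 (-0.94), CTSL (-0.93), GABARAPL1 (-0.79), MAP1LC3B (-0.77) and PSAP (-0.61) were also lower in Hep3B-IR cells, of which PSAP and GABARAPL1 lost the call under 19 and 15 of 28 alternatives. FNIP2 was higher in Hep3B-IR cells (1.01 ± 0.20, adjusted p = 0.006). Whether the difference between IR and CR cells itself differs between the lines was not tested.

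**Figure D3:**
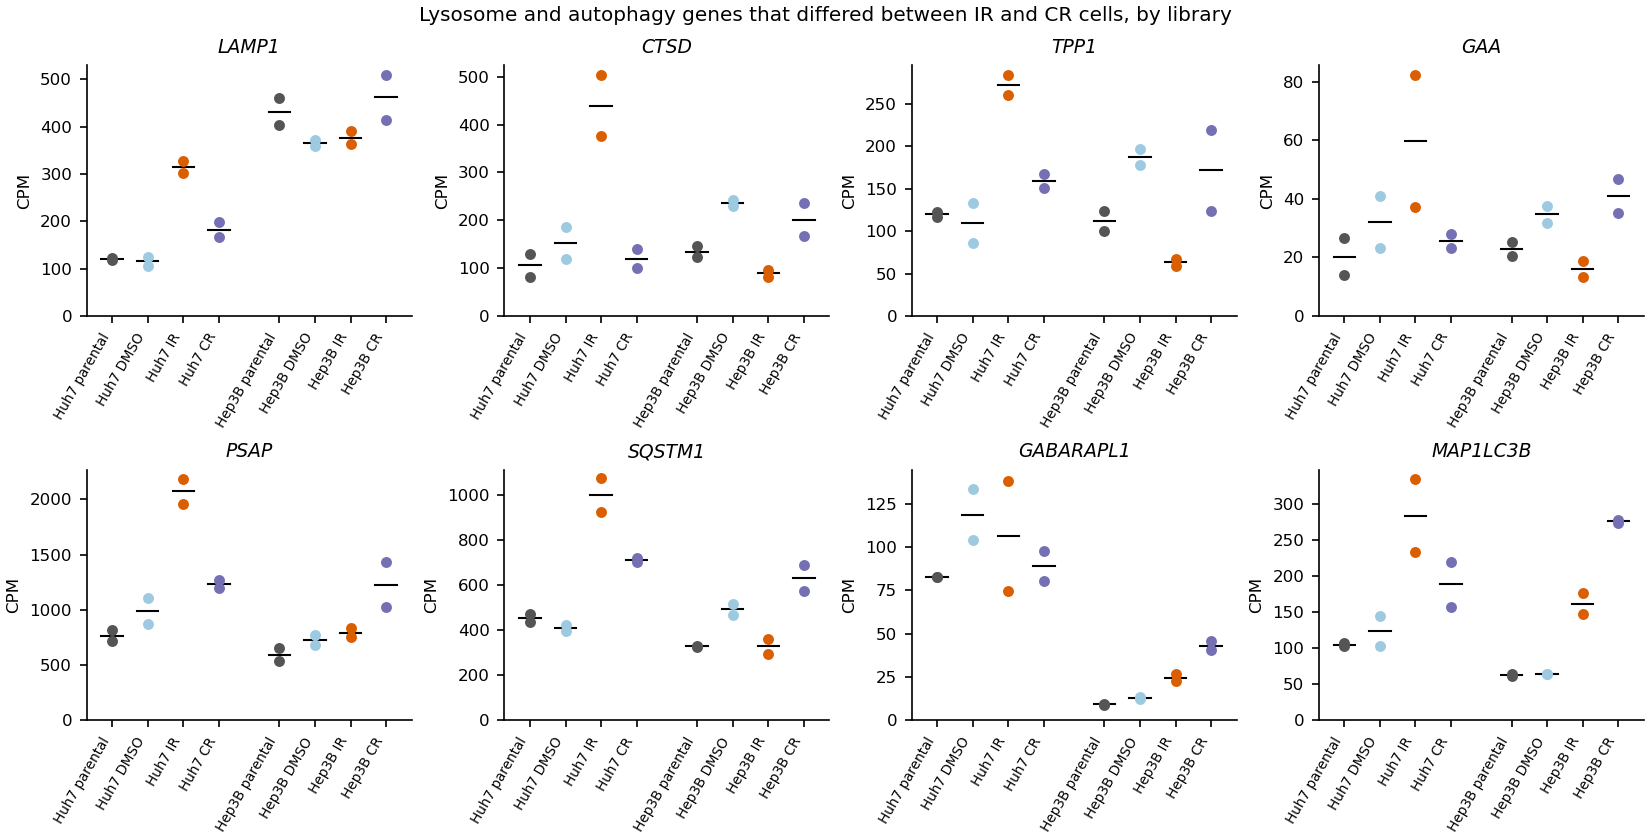
CPM (linear axis from 0) of 8 lysosome and autophagy genes in the 16 libraries; points are libraries and bars the means of 2. LAMP1 and CTSD are highest in Huh7-IR among Huh7 groups, while TPP1, CTSD, GAA, SQSTM1, GABARAPL1 and MAP1LC3B are lower in Hep3B-IR than in Hep3B-CR cells.

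The parental lines differed before any resistance. In Huh7 parental cells 9 members were higher and 9 lower than in Hep3B parental cells, where 18.9% and 23.7% of all genes were. After MITF, the widest difference was that of GABARAPL1 (3.05 ± 0.23, limma adjusted p = 5.48e-07). CTSL (2.30), TFE3, GLA (1.32), UVRAG (1.02), ASAH1 (0.79), MAP1LC3B (0.73) and LAMP2 (0.63) were also higher in Huh7 cells. LAMP1 (-1.83), GUSB (-1.78), NEU1 (-1.70), CTSZ (-1.30), FNIP2 (-0.96), ATP6V1H (-0.90) and HEXA (-0.59) were lower, in addition to TFEB. RRAGD (-2.47 ± 0.69), also counted among the 9 called lower, is given as a value only. Its rise from the low Huh7 parental level is part of what the genes were chosen for. The RRAGD call was lost without Huh7 parental replicate 1 or Hep3B parental replicate 1, the former with a difference of -2.23.

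The change of resistant cells, averaged over both regimens, was then compared between the lines. It is built from the resistant comparisons that were known when the genes were chosen. Its p-values are therefore not independent of that choice, and nothing is read from the count. Of the 39 members other than RRAGD, the signed change was higher in Huh7 than in Hep3B cells for 12 and lower for 3 (16.3% and 13.1% of all genes). With TMM factors the counts were 10 and 5. CTSH fell in Huh7 cells (mean log2 change -2.89) and was 0.45 in Hep3B cells, a difference of -3.34 ± 0.48 (limma adjusted p = 0.00031). CTSS was 5.22 CPM and 2.06 CPM in Huh7 parental, 4.72 CPM and 5.36 CPM in Huh7-IR, and 6.72 CPM and 6.98 CPM in Huh7-CR cells, and it was 3.18 CPM and 2.24 CPM in Hep3B parental, 0.37 CPM and 0.47 CPM in Hep3B-IR, and 1.18 CPM and 0.93 CPM in Hep3B-CR cells. Its changes of 0.66 and -1.11 differed by 1.76 ± 0.34 (adjusted p = 0.0023). Resistant and parental libraries did not overlap for CTSH in Huh7 and for CTSS in Hep3B cells.

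The signed change was higher in Huh7 cells for the enzymes SGSH (1.5), NEU1 (1.47), CTSA (1.31), CTSD (1.14), TPP1 (0.93), HEXA (0.72), CTSZ (0.64) and GUSB (0.61). It was also higher for the membrane proteins NPC1 (1.25) and LAMP1 (1.04) and for FNIP2 (0.80). CTSZ had mean changes of opposite sign, 0.32 in Huh7 and -0.31 in Hep3B cells. GABARAPL1 (-1.53 ± 0.29, adjusted p = 0.0018) and GLA (-0.86 ± 0.22, adjusted p = 0.012) had the lower signed change in Huh7 cells. GLA fell further there, with mean changes of -1.12 in Huh7 and -0.26 in Hep3B cells. RRAGD, whose difference of 2.65 ± 0.85 is part of what the genes were chosen for, is given as a value only. For RRAGC the difference was 0.73 ± 0.30 (adjusted p = 0.084), for WIPI1 0.65 ± 0.45 (adjusted p = 0.30) and for MAP1LC3B -0.62 ± 0.25 (adjusted p = 0.081), and none of these was called. With DMSO cells as the reference RRAGC (1.09, SE 0.30) was called higher and MAP1LC3B (-0.81, SE 0.25) lower, and WIPI1 (0.52, SE 0.45) was not called.

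**Figure D4:**
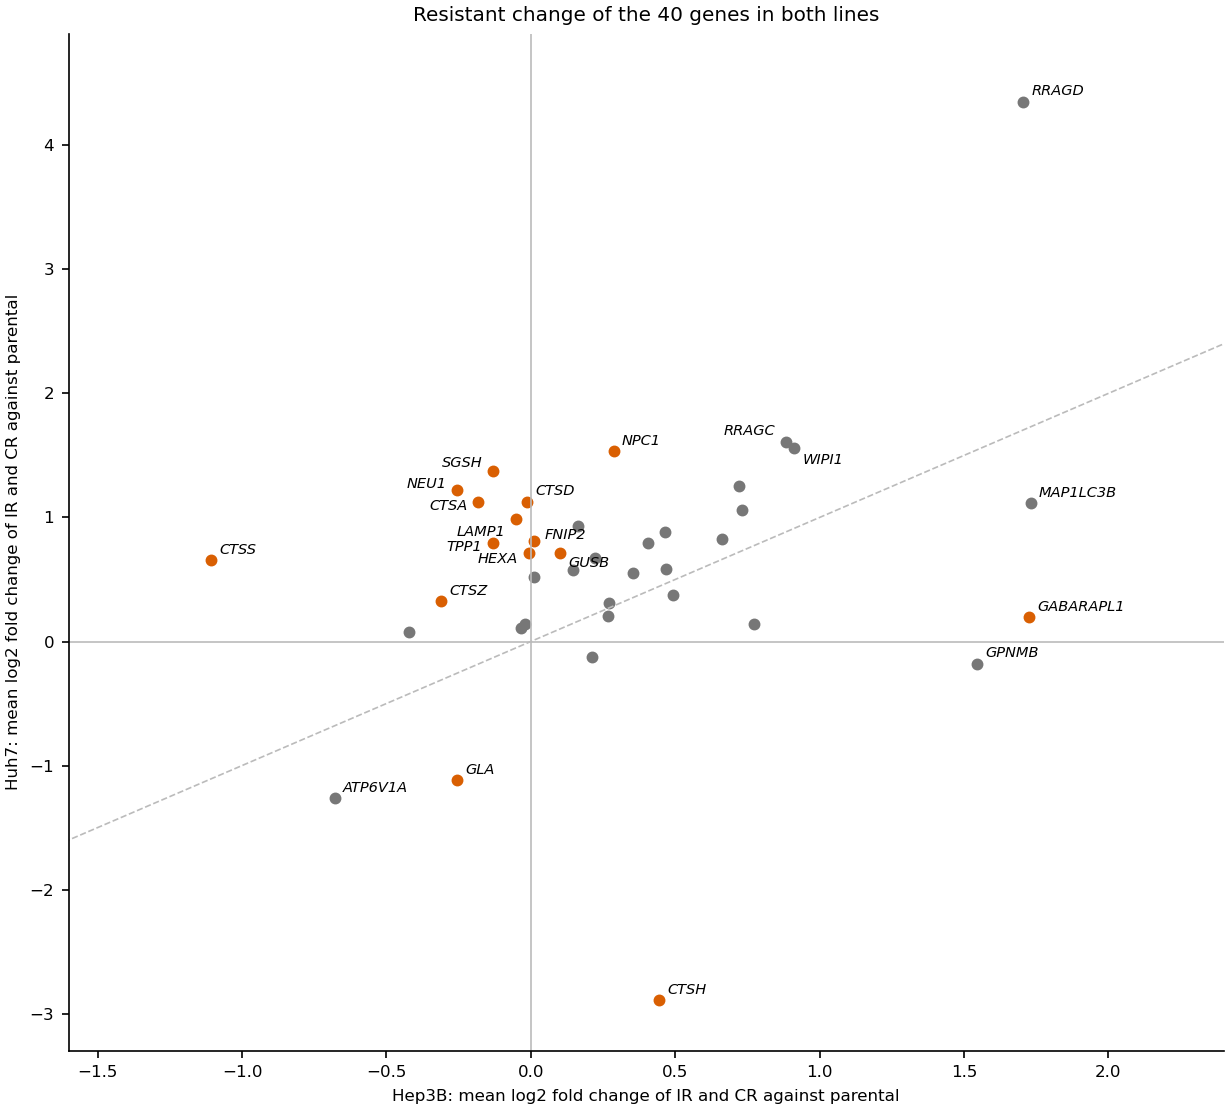
Mean log2 fold change of IR and CR against parental cells in Huh7 (y) and Hep3B (x); each point is 1 of the 40 genes, the dashed line marks equal change, and orange points passed the test of the difference between the lines (RRAGD is not marked, since it was not tested). CTSH lies at -2.89 in Huh7 and 0.45 in Hep3B, and a group of lysosomal enzymes lies near 0 in Hep3B and around 1 in Huh7.

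The Huh7-IR replicates differed by more than 1 on the log2 scale for 8 of the 40 members. Replicate 1 was above replicate 2 by 3.01 (log2) for GPNMB, 2.82 for RRAGD, 1.38 for CTSH, 1.12 for NPC2, 1.11 for ASAH1, 1.06 for WIPI1, 0.91 for NPC1 and 0.84 for RRAGC, and below it by -1.16 for SGSH and -1.12 for GAA. The exons of GPNMB, RRAGD, ASAH1 and RRAGC hold 43.6%, 43.0%, 40.5% and 42.5% GC, those of CTSH, NPC2, WIPI1 and NPC1 54.2%, 48.5%, 49.0% and 47.2%, and those of SGSH and GAA 59.8% and 64.0%. LAMP2 and MITF, with 36.0% and 40.6% GC, differed by 0.06 and -0.34, and TFEB, with 60.4%, by 0.72. Over 14597 genes the Spearman correlation of this replicate difference with GC content was -0.19 in Huh7-IR, 0.53 in Huh7 parental and -0.51 in Huh7 DMSO cells, and between -0.37 and 0.28 in the other groups. Each point of such a correlation is a gene of the same 2 libraries. After correction for GC content Huh7-IR cells held 23 higher and 3 lower members, with LAMP2 (0.80) called and ATP6V0D1 (0.51) no longer called.

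**Figure D5:**
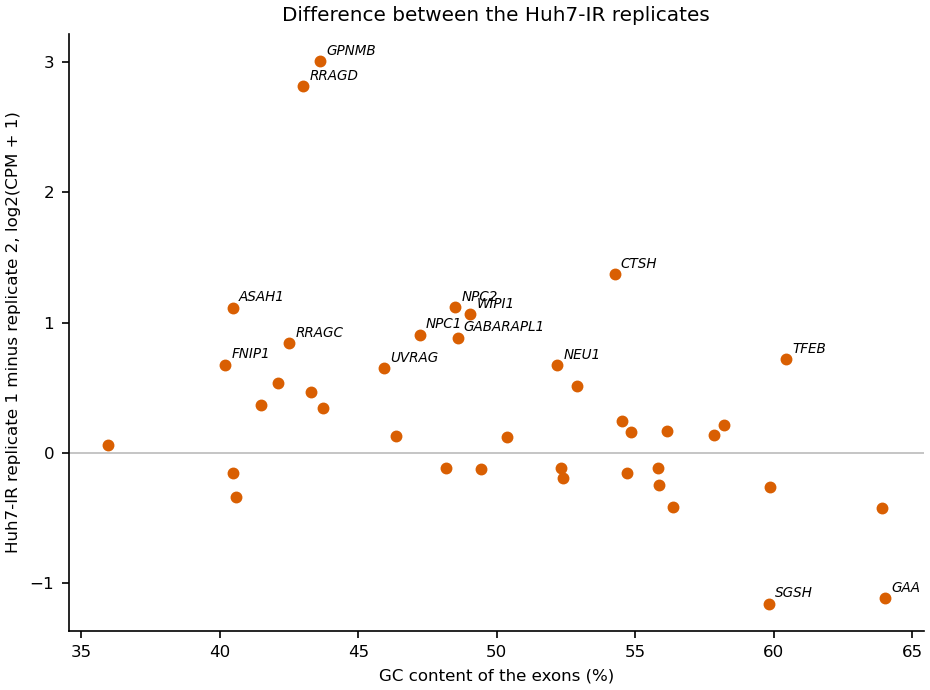
Difference between the 2 Huh7-IR replicates (replicate 1 minus replicate 2, log2(CPM + 1)) against the GC content of each gene's exons (%); each point is 1 of the 40 genes and names are given past 0.55 in size. GPNMB (3.01) and RRAGD (2.82) stand far above the rest, and SGSH and GAA lie at -1.16 and -1.12.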

How the data were processed

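RNA of 16 libraries, 2 for each of the 8 groups, was sequenced as single-end reads. The methods state biological triplicates, a total RNA kit with poly(A) RNA then sequenced, and a HiSeq. The labels give 2 libraries, poly(A) enrichment and a NextSeq. The authors mapped reads with STAR to hg19, kept unique hits, counted reads over RefSeq exons with QuasR and deposited CPM (counts divided by the library total). In every library 100% of values were whole reads within 0.05 reads. A count of 0 allows 3 reads and covers counting error only.

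From these, log2(CPM + 1) was fitted with limma 3.58.1 (R 4.3.3) in a common model of 8 groups with a mean-variance trend, over the 15019 genes that reached 1 CPM in 2 or more libraries, as the values are CPM and not the counts that edgeR, used by the authors, needs. Calls required a Benjamini-Hochberg adjusted p under 0.05 over all genes and a log2 change of 0.58 or more in either direction, the fold of the study's methods. Alternatives were edgeR 4.0.16 and DESeq2 1.42.0 on recovered reads, TMM and quantile scaling, pseudocounts of 0.25 and 4 CPM, no filter, GC correction, a replicate block, each line alone, DMSO as reference, unadjusted p and leaving out each library. A sign change with neither value called was not counted as a reversal.

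The members and lists were chosen with earlier results of these data known. Library values are given for the Rag, folliculin and MiT/TFE genes, GPNMB, members changed by at least 1 (log2) in at least 2 of 4 resistant comparisons, and the members with the widest called differences in the tested comparisons. Symbols were matched for 26111 genes. Gene length and GC content are from GENCODE on GRCh37, and promoters from RefSeq on GRCh38.p14.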

Additional observations from a re-analysis of the deposited data

Results flagged for a closer look

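The change of the resistant cells against parental cells differed between Huh7 and Hep3B cells, by the limma test of that difference, for 15 members besides RRAGD, and values are log2 differences (Huh7 minus Hep3B). That test uses the comparisons that were known when the genes were chosen, so it is not independent of the choice. It was lower in Huh7 cells for CTSH (-3.34), GABARAPL1 (-1.53) and GLA (-0.86). It was higher for the peptidases CTSS (1.76), CTSA (1.31), CTSD (1.14), TPP1 (0.93) and CTSZ (0.64), for the hydrolases SGSH (1.5), NEU1 (1.47), HEXA (0.72) and GUSB (0.61), and for NPC1 (1.25), LAMP1 (1.04) and FNIP2 (0.80). Of these, GUSB lost the call under 10, TPP1 under 8 and FNIP2 under 6 of 28 alternatives. CTSH, GABARAPL1, LAMP1 and CTSS kept it under all 28.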

How the results depend on the processing

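Of the 400 log2 fold changes of members (40 members in 10 comparisons), 111 were called, 61 of them under every alternative, and for 118 at least 1 alternative changed the call. GPNMB in Huh7-IR cells, 0.52 and not called, turned to -0.99 and was called lower without Huh7-IR replicate 1, and it was 2.02 without replicate 2. The counts of members called in Huh7-IR, Huh7-CR and Hep3B-CR cells and between the parental lines stayed within 1.5 times under all alternatives, at 25 to 27, 15 to 20, 9 to 14 and 15 to 21 members when 1 library was left out.

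In Huh7 DMSO cells the count of 1 fell to 0 with TMM factors, quantile normalization, a pseudocount of 4 CPM, GC correction, GC correction with the replicate block, and the model of each line alone. It was 2 with an unadjusted p and 0 to 6 with 1 library left out, the highest without Huh7 DMSO replicate 1 (4 higher and 2 lower). In Hep3B DMSO cells the count of 0 became 2 in the model of each line alone and 4 with an unadjusted p, and was 0 to 1 with 1 library left out. For Hep3B-IR cells the count of 6 was 13 with DMSO cells as reference (5 higher and 8 lower), and it was 3 to 8 with 1 library left out, the lowest without Hep3B-IR replicate 1. Between Huh7-IR and Huh7-CR cells 4 members became 7 with GC correction, 7 when the replicate block was added, 0 in the model of each line alone and 11 with an unadjusted p. The range with 1 library left out was 2 to 11, with 2 without either Huh7-CR replicate, 9 without either Huh7 DMSO replicate and 11 without Huh7-IR replicate 2. Between Hep3B-IR and Hep3B-CR cells 9 members became 5 without the filter, where more genes are tested. They were 3 to 11 with 1 library left out, with 5 without either Hep3B-CR replicate, 4 without Hep3B-IR replicate 1 and 3 without replicate 2. The count of 16 members whose change differed between the lines includes RRAGD, which is given as a description, and is 15 without it. The 16 became 8 to 20 with 1 library left out, with 8 without Huh7 parental replicate 2 and 9 without Hep3B parental replicate 1. Other causes were not tested.

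The replicate numbers did not meet the rule that every pair of groups correlates above 0.1: over 28 pairs the correlation of deviations lay between -0.22 and 0.44 (Huh7-IR with Huh7-CR), 13 were over 0.1 and 5 under -0.1. Whether some groups were processed together is not given in the sources used here. With the replicate block the line difference held 17 members (16 without RRAGD) and the other counts were unchanged.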
